A study of Homo sapiens with 12 samples.

Results

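The transcripts described here are those of 10 amino acid transporter genes, chosen by name from a table of 34626 genes. They are SLC3A2, SLC7A5, SLC7A11, SLC7A1, SLC1A4, SLC1A5, SLC38A1, SLC38A2, SLC6A9 and SLC43A1, and all 10 were found under those names. RNA sequencing gave their levels in the established acute myeloid leukaemia cell lines MV4-11 and THP-1, both of monocytic character. Each line carried either a control short hairpin (shControl) or a short hairpin against CYTH4 (shCYTH4), a cytohesin that activates ARF GTPases, with 3 libraries in each of the 4 groups. The libraries were made from poly(A) RNA and kept strand information. The promoter behind the hairpins, the number of hairpins and the time after their delivery were not given in the sources used here. No source says that the 3 libraries of a group were separate cultures, so p-values measure the spread between these libraries, which may be technical.

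Amino acid transporters of the plasma membrane set which amino acids a cell can take up. Some are exchangers that give up one amino acid to import another, some use the sodium gradient, and the LAT1 and xCT light chains reach the surface only when bound to the SLC3A2 heavy chain. In leukaemia cells LAT1 and ASCT2 are known for feeding leucine and glutamine to growth pathways. Several of these genes are known targets of ATF4, a transcription factor made when the eIF2alpha kinases sense amino acid shortage or other stress. SLC7A11 is also a known target of NRF2, the factor of the oxidative stress response.

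CYTH4 itself was measured in every library as a check of the labels. In THP-1 it stood at 25.7, 32.2 and 21.0 FPKM (fragments scaled to transcript length and library depth) in the controls and at 15.7, 15.0 and 15.7 FPKM with shCYTH4, and it fell (log2 change -0.89, SE 0.19, adjusted p = 0.0338). In MV4-11 it stood at 20.9, 16.0 and 18.1 FPKM in the controls and at 15.5, 20.7 and 22.3 FPKM in the libraries labelled shCYTH4. The MV4-11 groups overlapped (log2 change 0.01, SE 0.19, adjusted p = 0.988), so what follows for that line compares libraries set apart by their label but not measurably by CYTH4. Throughout, log2 changes, standard errors and adjusted p-values come from edgeR's quasi-likelihood test over 12350 genes with Benjamini-Hochberg adjustment, with a call meaning an adjusted p below 0.05.

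Totals ran from 71730093 to 77782719 estimated counts per library. Of 10 monocytic and myeloid markers, 9 reached 1 FPKM in both MV4-11 groups and 10 in both THP-1 groups. The highest summed levels of T cell and of erythroid markers in any library were 0.163 and 0.420 FPKM. Some marker sums moved with the groups: the myeloid sum was 2525 to 2729 FPKM in MV4-11 controls, 2053 to 2110 with the shCYTH4 label, 2323 to 2656 in THP-1 controls and 2869 to 3131 with shCYTH4. The B cell markers found, 3 of 4, summed to 0.957 to 0.995, 1.43 to 1.90, 1.75 to 2.33 and 2.66 to 3.69 FPKM in the same order. The epithelial and fibroblast markers found, 4 of 6, summed to 0.610 to 0.997 FPKM in THP-1 controls and 0.0488 to 0.217 with shCYTH4, where KRT19 was at 0. The part of these markers in the transporter results was not tested. THP-1 shCYTH4 replicate 3 stood apart from the other shCYTH4 libraries of its line. The chi-square statistic per degree of freedom was taken between their counts divided by 4. It was 5.68 for replicates 1 and 2, 51.3 for replicates 1 and 3 and 55.9 for replicates 2 and 3. MV4-11 shCYTH4 replicate 1 stood apart to a like degree, at 47.3 against replicate 2 and 61.3 against replicate 3, with 7.68 between replicates 2 and 3. Pairs of control libraries gave 13.1 to 30.1 in MV4-11 and 19.9 to 34.7 in THP-1. Calls among the 10 transporters in MV4-11 and in the difference between the lines are given with and without either library. Those in THP-1 are given with and without THP-1 shCYTH4 replicate 3. For the further lists, counts called within each line are also given without that THP-1 library. Likeness values and single differences between the lines in those lists use all 12 libraries. Since each library is bulk RNA, fewer cells that make a transcript and less of it per cell cannot be told apart.

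In the control libraries the transporters covered a wide span of levels. In MV4-11 controls the order ran from SLC1A5 at 128 ± 10.8 FPKM (SD, n = 3, as for all such values) and SLC7A5 at 88.7 ± 14.1 down to SLC6A9 at 0.382 ± 0.15 and SLC7A11 at 0.247 ± 0.0796. SLC7A1, SLC3A2, SLC1A4 and SLC43A1 lay between 25.4 and 31.8 FPKM on average and each overlapped its neighbour, as did SLC6A9 and SLC7A11. SLC38A2 at 11.5 ± 3.19 and SLC38A1 at 2.84 ± 0.807 FPKM were apart from their neighbours.

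THP-1 controls had the same genes at the top and the bottom. SLC1A5 stood at 97.3 ± 11.0 FPKM and SLC7A5 at 64.6 ± 12.3 FPKM. The next 6 in order, SLC7A1, SLC3A2, SLC38A2, SLC43A1, SLC38A1 and SLC1A4, ran from 36.2 ± 1.78 to 17.4 ± 0.507 FPKM with overlap between each neighbouring pair. SLC7A11 at 1.02 ± 0.340 and SLC6A9 at 0.967 ± 0.360 FPKM overlapped each other and lay below the rest.

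**Figure D1:**
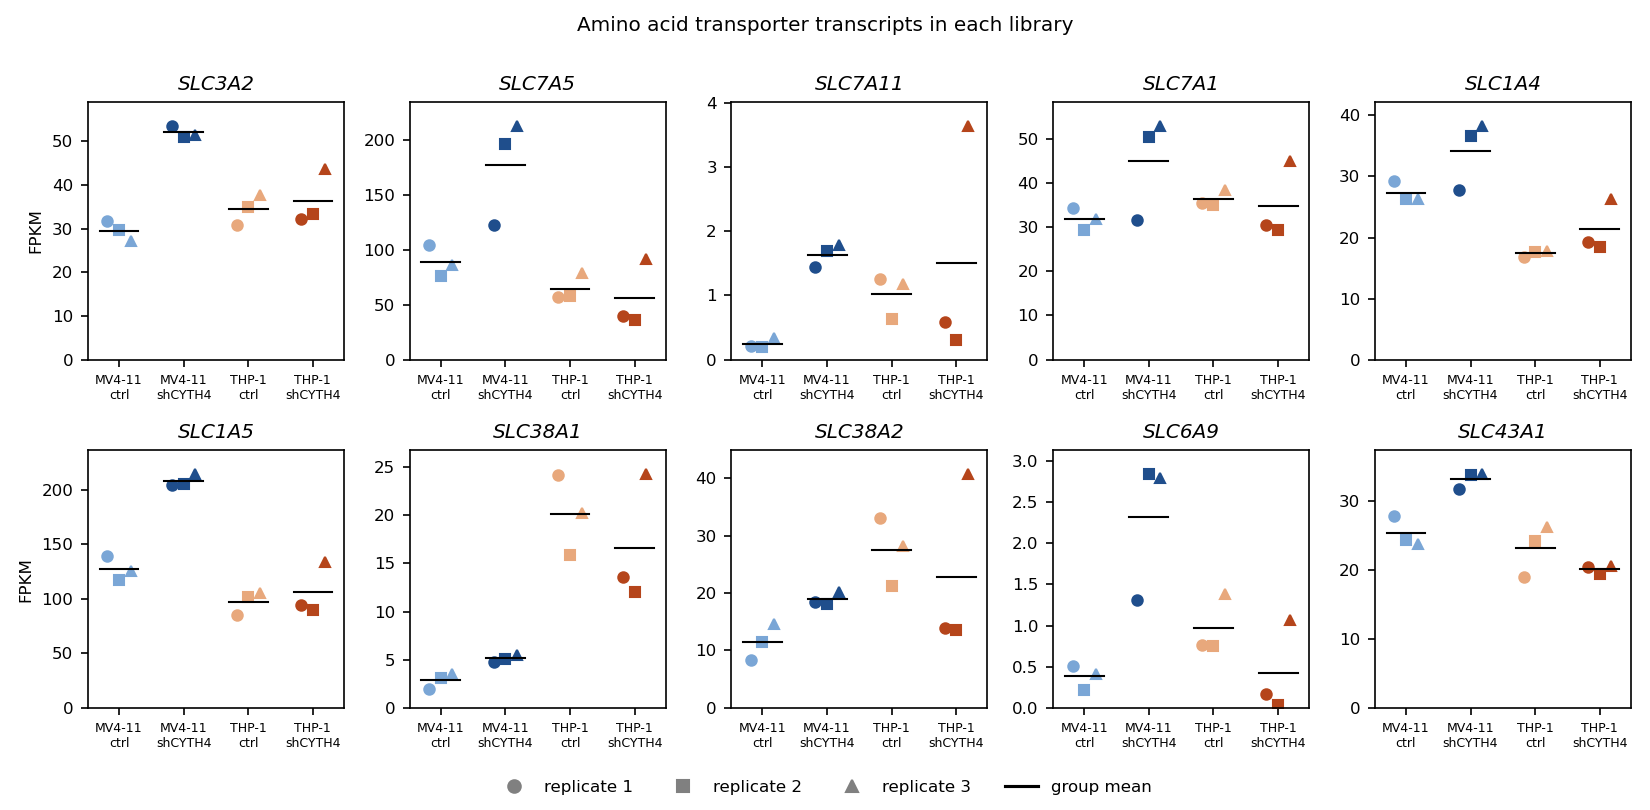
FPKM of the 10 transporters in all 12 libraries, 1 panel per gene with its own linear axis from 0; points are libraries, shapes mark replicate numbers and lines mark group means (ctrl is shControl). MV4-11 shCYTH4 libraries sit above their controls in 8 panels, and THP-1 shCYTH4 replicate 3 is the highest library of its group in all 10.

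Between the control libraries of the lines, SLC38A1 and SLC38A2 were lower in MV4-11, and the sodium-dependent SLC6A9 was not called (log2 -1.30, adjusted p = 0.282). SLC38A1 (SNAT1), which takes up glutamine and other small neutral amino acids, was lower by 6.97-fold in the MV4-11 controls (log2 -2.80, SE 0.25, adjusted p = 3.39e-07). SLC38A2 (SNAT2), its adaptive relative, was 2.36-fold lower (log2 -1.24, SE 0.37, adjusted p = 0.0150). The neutral exchangers went the other way. SLC1A4 was 1.59-fold higher in MV4-11 (log2 0.67, SE 0.16, adjusted p = 0.00254) and SLC1A5 1.33-fold higher (log2 0.41, SE 0.16, adjusted p = 0.0398). These 4 of 10 stand beside 51.4% of all genes tested that were called between the control libraries, 24.6% higher and 26.7% lower in MV4-11. SLC7A11 was not called, with a log2 difference of -2.02 (SE 0.79, adjusted p = 0.0596) and no overlap between the lines, beside 31.2% of all genes with MV4-11 controls below all THP-1 controls. It passed in 6 of 21 alternatives: DESeq2 (adjusted p = 0.0172), limma on log2(FPKM + 0.1) (0.0446), the replicate block (0.0270), and without THP-1 shCYTH4 replicate 1 (0.0494), 2 (0.0124) or 3 (3.81e-05). The SLC38A2 call was lost without MV4-11 shControl replicate 1 (adjusted p = 0.0637). The SLC1A5 call was lost without MV4-11 shControl replicate 1 or 3, MV4-11 shCYTH4 replicate 2, or THP-1 shControl replicate 1 or 3 (adjusted p from 0.0523 to 0.172).

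Promoter sequence was read for these genes because several of them are known targets of stress-responsive factors. RefSeq windows on GRCh38.p14, from 250 bases before to 50 bases after an annotated start, existed for 9 of the 10 genes, 16 windows in all; SLC7A11 was not in the table. The C/EBP-ATF response element, searched as TGATGNAA on both strands, was found in 5 of the 16 windows, in SLC3A2, SLC7A1, SLC1A4, SLC1A5 and SLC38A1, against 3.62% of 35116 promoter windows. The antioxidant response element, searched as TGACNNNGC on both strands, was in 4 of the 16, in SLC3A2, SLC7A5, SLC7A1 and SLC1A5, against 13.35%. The stretches that hold these matches are shown 5′ to 3′ on the gene's strand, from 120 bases before to 20 bases after the start, with each match in capitals.
SLC3A2 at chr11:62881579-62881718, plus strand: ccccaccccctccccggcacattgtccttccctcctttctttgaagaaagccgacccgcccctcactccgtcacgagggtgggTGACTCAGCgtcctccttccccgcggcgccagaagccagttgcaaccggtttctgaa
SLC7A5 at chr16:87869488-87869627, minus strand: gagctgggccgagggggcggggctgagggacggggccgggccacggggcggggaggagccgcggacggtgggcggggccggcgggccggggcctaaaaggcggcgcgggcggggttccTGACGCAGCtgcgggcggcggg
SLC7A1 at chr13:29595669-29595808, minus strand: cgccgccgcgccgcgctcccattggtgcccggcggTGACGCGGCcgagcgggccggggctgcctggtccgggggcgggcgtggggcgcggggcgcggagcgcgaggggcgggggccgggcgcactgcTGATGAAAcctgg
SLC1A4 at chr2:64989279-64989418, plus strand: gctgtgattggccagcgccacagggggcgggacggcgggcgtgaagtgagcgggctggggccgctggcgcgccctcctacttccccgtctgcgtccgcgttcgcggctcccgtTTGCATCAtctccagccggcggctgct
SLC1A5, first listed start, at chr19:46784795-46784934, minus strand: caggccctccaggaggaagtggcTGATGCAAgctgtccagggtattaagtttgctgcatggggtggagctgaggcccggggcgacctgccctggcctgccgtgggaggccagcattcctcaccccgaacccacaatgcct
SLC1A5, second listed start, at chr19:46787274-46787413, minus strand: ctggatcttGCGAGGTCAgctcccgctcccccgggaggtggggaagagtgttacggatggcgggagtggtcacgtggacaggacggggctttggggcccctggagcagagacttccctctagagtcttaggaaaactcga
SLC38A1 at chr12:46266497-46266636, minus strand: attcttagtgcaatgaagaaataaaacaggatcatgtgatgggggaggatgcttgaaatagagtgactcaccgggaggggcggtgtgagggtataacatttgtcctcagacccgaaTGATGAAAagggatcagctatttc
In SLC7A1 the first capitals are the antioxidant element, from 85 to 77 bases before the start, and the second the C/EBP-ATF element, at bases 8 to 15 after it. The SLC1A4 match lies on the opposite strand across the start, from base -7 to base 1, and the SLC38A1 match from -4 to 4. Of 3 SLC1A5 windows, those of the first and second listed starts hold 1 kind of element each, the antioxidant match on the opposite strand, and that of the most upstream start holds neither. SLC3A2 has a further C/EBP-ATF match at bases 38 to 45, beyond the stretch shown. A match is a run of letters and not a measured binding site, and which start each cell line used was not measured.

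In MV4-11, SLC3A2 was the transporter that rose in the libraries labelled shCYTH4. It encodes the 4F2 heavy chain (CD98), the partner that carries several transport light chains to the cell surface (ENSG00000168003, chromosome 11, 62856004 to 62888880, plus strand, position as in the deposited table). Its levels were 31.6, 29.6 and 27.1 FPKM in the controls and 53.5, 51.0 and 51.4 FPKM in the libraries labelled shCYTH4. Every shCYTH4 library was above every control, and the group spread was small against the difference. The rise was 1.67-fold (log2 0.74, SE 0.14, 95% interval 0.43 to 1.05, adjusted p = 0.0191). This was 1 of 10 transporters called higher, beside 0.526% of all genes tested. The call was lost without MV4-11 shControl replicate 2 (adjusted p = 0.0891), shControl replicate 3 (0.0671) or shCYTH4 replicate 2 (0.0554).

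Among the 10, the light chains that pair with SLC3A2 are SLC7A5 and SLC7A11, both with a larger fitted change and standard error than SLC3A2. SLC7A5 encodes LAT1, which imports leucine and other large neutral amino acids in exchange for glutamine (ENSG00000103257, chromosome 16, 87830023 to 87869507, minus strand). It stood at 104, 75.9 and 86.4 FPKM in MV4-11 controls and at 123, 196 and 213 FPKM in the libraries labelled shCYTH4. The groups did not overlap, and shCYTH4 replicate 1 lay nearest the controls. The log2 change was 0.92 (SE 0.33, adjusted p = 0.248) and was not called. SLC7A11 encodes xCT, which takes up cystine in exchange for glutamate (ENSG00000151012, chromosome 4, 138164097 to 138242349, minus strand). It stood at 0.212, 0.192 and 0.339 FPKM in the controls and at 1.45, 1.68 and 1.78 FPKM in the libraries labelled shCYTH4. All 3 shCYTH4 libraries were far above the controls at a low level. The fitted log2 change of 2.65 was the largest of the 10 in this line, with an SE of 0.81 and an adjusted p of 0.189, so it was not called.

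The ratio of a light chain to the heavy chain, both per length in FPKM, describes how these genes moved beside each other. SLC7A5 per SLC3A2 was 3.01 ± 0.391 in MV4-11 controls and 3.42 ± 0.990 in the libraries labelled shCYTH4, with overlap between the groups. In THP-1 it was 1.87 ± 0.210 in the controls and 1.47 ± 0.542 with shCYTH4, where replicate 3 stood at 2.09 and the others at 1.23 and 1.09. SLC7A11 per SLC3A2 was 0.00857 ± 0.00342 and 0.0315 ± 0.00402 in the MV4-11 groups, which did not overlap. In THP-1 it was 0.0301 ± 0.0114 in the controls and 0.0183, 0.00905 and 0.0835 in the shCYTH4 libraries.

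SLC7A1 encodes CAT1, the main carrier of arginine and lysine in many cells (ENSG00000139514, chromosome 13, 29509414 to 29595688, minus strand). In MV4-11 it stood at 34.2, 29.4 and 31.8 FPKM in the controls and at 31.5, 50.3 and 52.9 FPKM in the libraries labelled shCYTH4. Replicate 1 lay among the controls, and replicates 2 and 3 lay above them. The log2 change of 0.42 (SE 0.19, adjusted p = 0.347) was not called.

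The neutral exchangers SLC1A5 and SLC1A4 were not called in MV4-11. SLC1A5 (ASCT2; ENSG00000105281, chromosome 19, 46774883 to 46788594, minus strand), known for glutamine exchange, was the highest of the 10 per length by group mean in all 4 groups. Its levels were 139, 118 and 126 FPKM in MV4-11 controls and 204, 205 and 215 FPKM in the libraries labelled shCYTH4, with no overlap. The log2 change was 0.63 (SE 0.16, 95% interval 0.29 to 0.96) with an adjusted p of 0.0686. SLC1A4 (ASCT1; ENSG00000115902, chromosome 2, 64988477 to 65023865, plus strand), which exchanges alanine, serine and cysteine, stood at 29.3, 26.3 and 26.3 FPKM in the controls and at 27.7, 36.6 and 38.3 FPKM with the shCYTH4 label. As with SLC7A1, replicate 1 fell inside the control range. The log2 change of SLC1A4 was 0.25 (SE 0.16, adjusted p = 0.502), the smallest of the 10.

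SLC38A1 and SLC38A2 are neighbours on the minus strand of chromosome 12 (ENSG00000111371, 46183063 to 46270017, and ENSG00000134294, 46358188 to 46372773). SLC38A1 stood at 1.94, 3.11 and 3.48 FPKM in MV4-11 controls and at 4.8, 5.1 and 5.49 FPKM in the libraries labelled shCYTH4. SLC38A2 stood at 8.29, 11.4 and 14.7 FPKM and at 18.4, 18.2 and 20.2 FPKM. For both genes all libraries with the shCYTH4 label were above all controls, and neither was called (SLC38A1 log2 0.79, SE 0.24, adjusted p = 0.145; SLC38A2 log2 0.65, SE 0.36, adjusted p = 0.455). SLC6A9 encodes GlyT1, a sodium- and chloride-dependent glycine importer (ENSG00000196517, chromosome 1, 43991500 to 44031467, minus strand). It stood at 0.514, 0.219 and 0.413 FPKM in the controls and at 1.31, 2.85 and 2.79 FPKM with the shCYTH4 label, with a log2 change of 2.51 (SE 0.97, adjusted p = 0.299). Outside this group SLC6A9 reached 1 FPKM in 2 of 9 libraries, fewer than the 3 needed, so it entered the test through the group in which it was high.

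SLC43A1 encodes LAT3, a facilitator of leucine and related amino acids that needs no heavy chain (ENSG00000149150, chromosome 11, 57484534 to 57515780, minus strand). It stood at 27.9, 24.5 and 23.8 FPKM in MV4-11 controls and at 31.8, 33.9 and 34.0 FPKM in the libraries labelled shCYTH4. The groups did not overlap, and the log2 change of 0.31 (SE 0.15, adjusted p = 0.365) was not called. In all, 8 of the 10 transporters had every library of the shCYTH4 label above every control, or 7 of 9 without SLC6A9, beside 16% of all genes tested. The median log2 change was 0.70 over the 10 and 0.65 without SLC6A9, beside 0.0015 over all genes tested that had counts in the line.

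**Figure D2:**
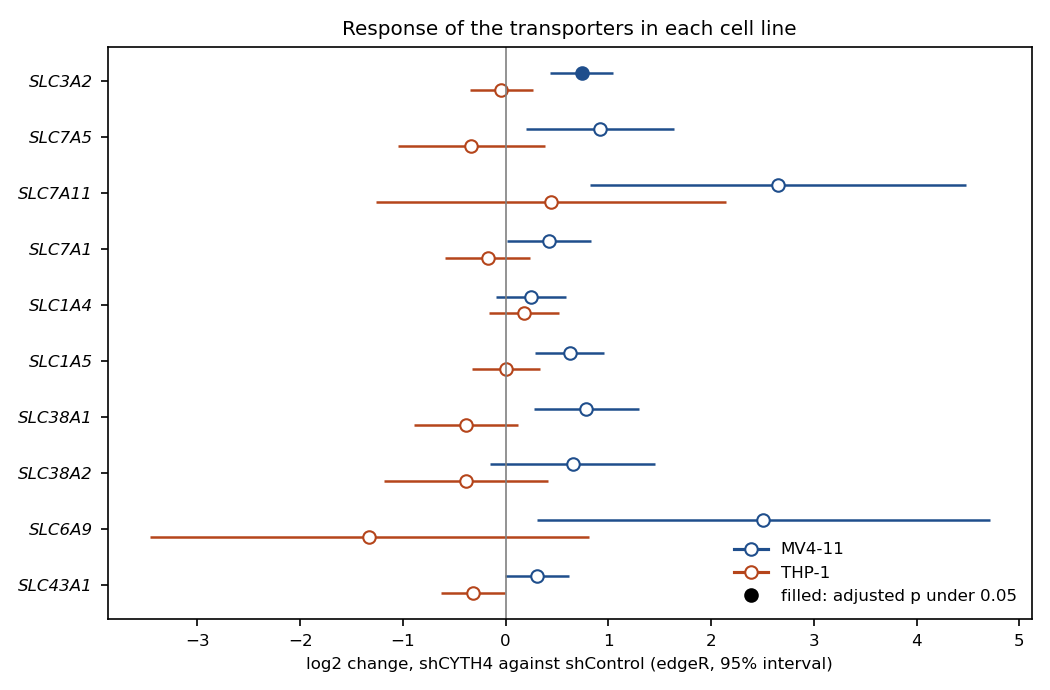
Fitted log2 change of each transporter with shCYTH4 against shControl in MV4-11 (blue) and THP-1 (orange), with 95% intervals from edgeR over all 12 libraries; filled points passed the threshold. SLC3A2 in MV4-11, at 0.74, is the filled point, and the widest intervals are those of SLC7A11 and SLC6A9.

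How many transporters were called in MV4-11 differed between fits. Fitted on the MV4-11 libraries alone, edgeR called 3 of the 9 other than SLC6A9 higher, beside 0.753% of all genes: SLC3A2, SLC7A11 (adjusted p = 3.48e-04) and SLC1A5 (0.0310). SLC6A9, which entered the test through this group, had an adjusted p of 0.00962. DESeq2 on all 12 libraries called 4 of the 9, beside 1.87% of all genes, which were SLC3A2, SLC1A5 (adjusted p = 0.0120), SLC7A11 (0.0190) and SLC38A1 (0.0291). Between these fits the change of SLC7A11 hardly moved, at 2.65 over all libraries, 2.67 in MV4-11 alone and 2.65 by DESeq2. Over all 22 alternatives it ran from 1.08 to 2.93. Without MV4-11 shCYTH4 replicate 1, edgeR called SLC3A2 alone (adjusted p = 0.0479), and the fitted changes of SLC7A5, SLC7A1 and SLC1A4 were 1.13, 0.63 and 0.39.

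In THP-1, none of the 10 transporters was called by edgeR, beside 0.607% of all genes called higher and 1.04% called lower. At an unadjusted p under 0.05 there was 1, SLC43A1, beside 16% of all genes. DESeq2 called 0 of the 10 as well, beside 608 of all genes in either direction. The median log2 change of the 10 was -0.25, beside -0.0089 over all genes with counts in the line. The libraries of the shCYTH4 group did not move together, and the values of replicate 3 are set out beside those of replicates 1 and 2.

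For the heavy chain, SLC3A2 stood at 30.8, 34.9 and 37.7 FPKM in THP-1 controls and at 32.2, 33.3 and 43.6 FPKM with shCYTH4, with overlap (log2 -0.04, adjusted p = 0.941). SLC7A5 stood at 56.8, 58.2 and 78.8 FPKM and at 39.6, 36.3 and 91.3 FPKM (log2 -0.33, adjusted p = 0.700). Replicates 1 and 2 of shCYTH4 lay below all SLC7A5 controls and replicate 3 above them all. SLC7A11 showed the same layout in a sharper form, at 1.26, 0.632 and 1.18 FPKM in the controls and 0.589, 0.301 and 3.64 FPKM with shCYTH4 (log2 0.44, adjusted p = 0.854).

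The cationic carrier and the exchangers had smaller fitted changes than the light chains. SLC7A1 stood at 35.5, 34.9 and 38.3 FPKM in the controls and at 30.4, 29.3 and 44.9 FPKM with shCYTH4 (log2 -0.17, adjusted p = 0.745). SLC1A5 stood at 84.9, 101 and 106 FPKM and at 94.6, 89.4 and 134 FPKM (log2 0.0034, adjusted p = 0.996). The SLC1A5 groups overlapped, with replicate 3 again the highest. SLC1A4 was the exception to the overlap: its controls were at 16.8, 17.6 and 17.8 FPKM, and its shCYTH4 libraries were higher at 19.3, 18.4 and 26.3 FPKM. That change was not called (log2 0.18, SE 0.16, adjusted p = 0.659), and 17.1% of all genes tested had shCYTH4 libraries above all controls.

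The sodium-coupled carriers had a layout in THP-1 much like that of the light chains. SLC38A1 stood at 24.2, 15.9 and 20.2 FPKM in the controls and at 13.6, 12 and 24.3 FPKM with shCYTH4 (log2 -0.38, adjusted p = 0.474). SLC38A2 stood at 33.1, 21.2 and 28.1 FPKM and at 14.0, 13.6 and 40.8 FPKM (log2 -0.38, adjusted p = 0.684). SLC6A9 stood at 0.761, 0.757 and 1.38 FPKM and at 0.168, 0.0299 and 1.06 FPKM (log2 -1.33, adjusted p = 0.560). In all 3 genes shCYTH4 replicates 1 and 2 were below every control while replicate 3 was inside or above the control range. SLC43A1 was unlike the rest in that replicate 3 lay with its group: the controls were at 19.0, 24.2 and 26.3 FPKM and the shCYTH4 libraries at 20.5, 19.4 and 20.6 FPKM (log2 -0.32, SE 0.15, adjusted p = 0.302).

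**Figure D3:**
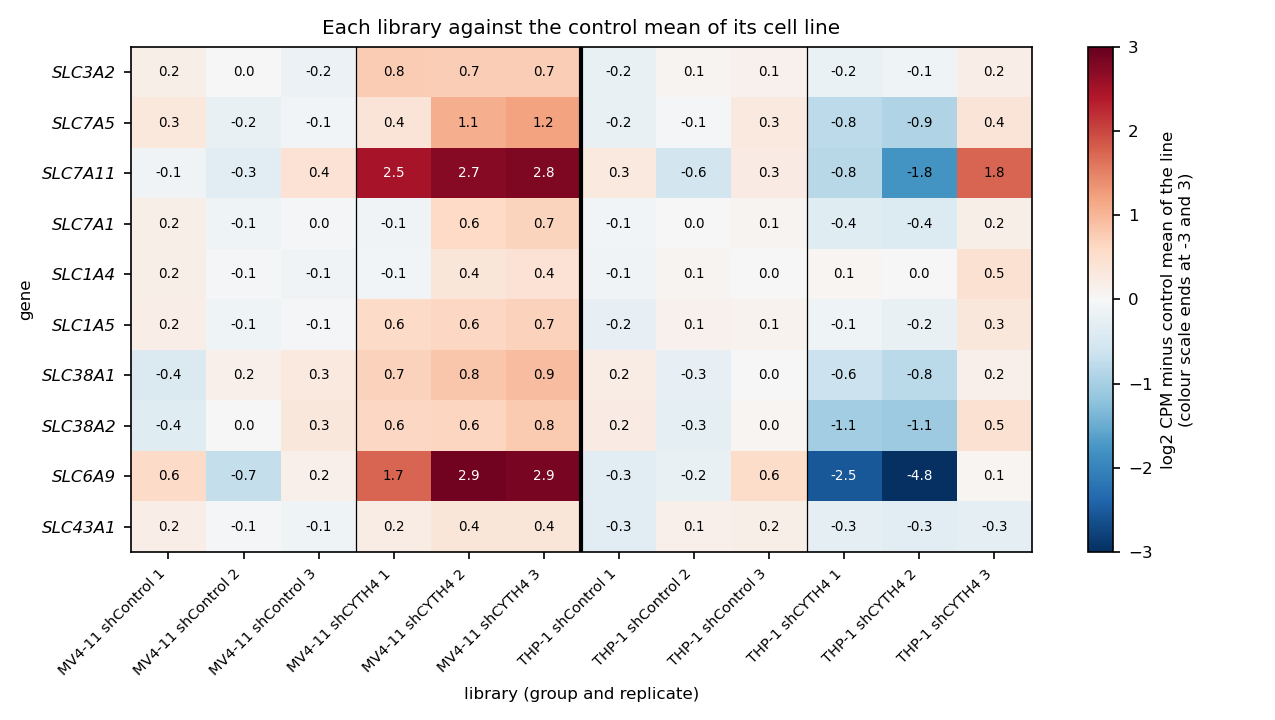
Log2 CPM of each transporter (rows) in each library (columns) minus the mean of the control libraries of the same line; red is above and blue below that mean, and numbers in the cells are the log2 values. All transporters are above 0 in MV4-11 shCYTH4 replicates 2 and 3, while THP-1 shCYTH4 replicates 1 and 2 are mostly blue and replicate 3 mostly red.

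Library by library, the 10 transporters differed from their controls as follows. Against the control mean of the line, the median log2 difference of the 10 was 0.60, 0.69 and 0.76 in MV4-11 shCYTH4 replicates 1, 2 and 3, with 8, 10 and 10 transporters above 0. In THP-1 shCYTH4 it was -0.50, -0.61 and 0.27, with 1, 0 and 9 above 0. The median over all genes tested stayed between -0.0072 and 0.02 in the 12 libraries.

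Without THP-1 shCYTH4 replicate 3, the same edgeR fit gave other counts in both lines. In THP-1 it called 5 of 10 transporters lower, beside 3.55% of all genes: SLC38A2 (log2 -1.08, adjusted p = 0.00536), SLC6A9 (-3.37, 0.0173), SLC7A11 (-1.28, 0.0330), SLC38A1 (-0.74, 0.0403) and SLC7A5 (-0.85, 0.0460). The THP-1 change of SLC7A11 thereby turned from 0.44 to -1.28. In MV4-11 it called 6 of the 9 other than SLC6A9 higher, beside 1.78% of all genes. These were SLC7A11 (log2 2.67, adjusted p = 1.51e-04), SLC3A2 (0.76, 0.00289), SLC1A5 (0.64, 0.0118), SLC38A1 (0.80, 0.0227), SLC7A5 (0.94, 0.0255) and SLC38A2 (0.67, 0.0451), and SLC6A9 had a change of 2.53 (adjusted p = 0.0323). Without THP-1 shCYTH4 replicate 3, SLC7A11 reached 1 FPKM outside MV4-11 shCYTH4 only in THP-1 controls 1 and 3 (1.26 and 1.18). That is fewer than the 3 libraries needed. In this fit SLC7A11, like SLC6A9, was therefore in the test through the MV4-11 shCYTH4 group. The MV4-11 changes were nearly the same in both fits, as with 0.74 and 0.76 for SLC3A2, and most intervals were narrower without THP-1 shCYTH4 replicate 3. Leaving out THP-1 shCYTH4 replicate 1 or 2 in its place gave 0 of 10 transporters called in THP-1, beside 15 and 29 of all 12350 genes. Replicate 3 was singled out after its values were seen.

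**Figure D4:**
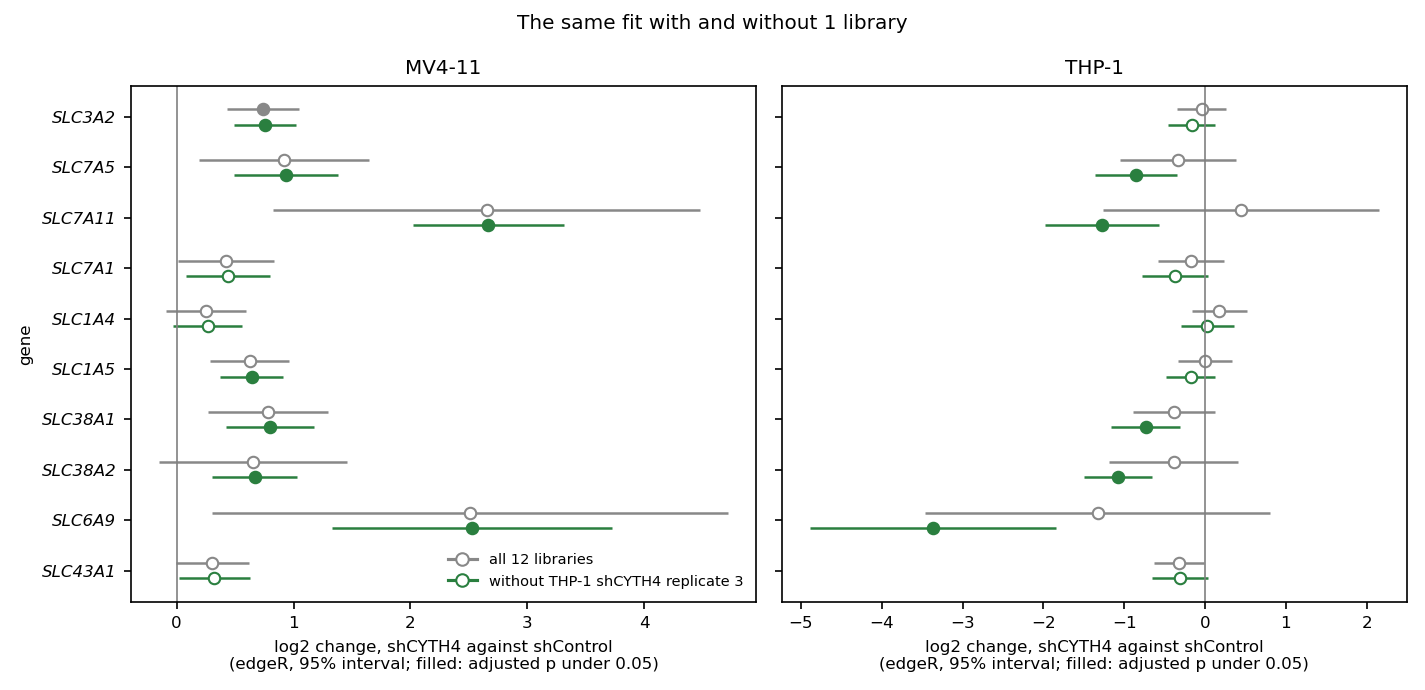
Fitted log2 change with 95% intervals for each transporter over all 12 libraries (grey) and without THP-1 shCYTH4 replicate 3 (green), in MV4-11 (left) and THP-1 (right); filled points passed the threshold. In MV4-11 the points hold their place and the intervals narrow, and in THP-1 SLC7A11 changes sign.

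The responses of the lines were compared directly through their difference, MV4-11 minus THP-1. All 10 fitted differences were above 0, from 0.07 for SLC1A4 to 3.84 for SLC6A9, with a median of 0.91, or 0.78 without SLC6A9, beside 0.02 over all genes. None was called by edgeR, beside 0.413% of all genes called above 0. At an unadjusted p under 0.05 there were 6 of the 9 other than SLC6A9, beside 14.2% of all genes. DESeq2 called 2 of them, beside 1.82% of all genes, SLC38A1 (log2 1.16, adjusted p = 0.0217) and SLC3A2 (0.77, 0.0193). The smallest adjusted p in edgeR was that of SLC3A2 (log2 0.78, SE 0.20, adjusted p = 0.0888), followed by SLC38A1 (1.17, SE 0.34, adjusted p = 0.126). The test called 0 without MV4-11 shCYTH4 replicate 1, beside 56 of all 12350 genes called above 0. Without THP-1 shCYTH4 replicate 3 it called 6 of the 9, beside 3.9% of all genes. These were SLC7A11 (3.94, adjusted p = 1.39e-04), SLC38A2 (1.74, 0.00131), SLC38A1 (1.53, 0.00336), SLC7A5 (1.79, 0.00440), SLC3A2 (0.92, 0.00793) and SLC1A5 (0.82, 0.0185). SLC6A9 had a difference of 5.90 (adjusted p = 0.00337). In this fit SLC7A11, like SLC6A9, was in the test through the MV4-11 shCYTH4 group.

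Other amino acid transporters of the plasma membrane were mostly below the level needed for a test. Of 29 listed, 20 were in the table and 6 were expressed enough to be tested. None was called in either line or in the difference. In MV4-11 their changes ran from -0.72 for SLC43A2 to 0.40 for SLC7A7 over the 5 with counts, with a median of -0.31. SLC7A6, a light chain of the same heavy chain, had a log2 change of -0.30 (SE 0.22, adjusted p = 0.563), and SLC38A5, a relative of SLC38A1, one of -0.31 (SE 0.28, adjusted p = 0.657). In THP-1 the median of the 6 was -0.02. Of 10 lysosomal amino acid transporters none was called in MV4-11. In THP-1 SLC15A4, a carrier of histidine and peptides, rose, with 2.19 ± 0.0845 FPKM in the controls against 3.75 ± 0.556 FPKM (log2 0.66, SE 0.15, adjusted p = 0.0474). Without THP-1 shCYTH4 replicate 3, 1 of the 6 and 1 of the 10 were called lower in MV4-11, beside 178 of all 12350 genes. In that fit 2 of the 10 lysosomal genes were called higher in THP-1, beside 3.21% of all genes.

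The eIF2alpha and ATF4 pathway, which acts on several of the transporters, was read from 18 tested genes. In MV4-11, 3 rose, beside the same 0.526% of all genes: VLDLR, a lipoprotein receptor (log2 1.01, adjusted p = 0.0214), TRIB3, a pseudokinase of the stress response (2.52, 0.0297), and ATF3, a transcription factor of it (1.18, 0.0397). ATF3 was at most 0.735 and 0.999 FPKM in the MV4-11 and THP-1 controls, and at least 1.15 and 1.11 FPKM with the shCYTH4 label. It thus entered the test through the shCYTH4 groups, in which it was high. The median of the 18 in MV4-11 was 0.53. In THP-1 none was called and the median was 0.07. TRIB3 stood at 5.64, 3.32 and 5.38 FPKM in MV4-11 controls, 27.1, 29.1 and 31.2 FPKM with the shCYTH4 label, and 20.9, 16.6 and 62.0 FPKM in THP-1 shCYTH4. ATF4 stood at 165 ± 15.9 and 257 ± 24.8 FPKM in the MV4-11 groups and DDIT3 at 3.36 ± 0.408 and 8.15 ± 1.60 FPKM, and neither was called (adjusted p = 0.228 and 0.0734). CHAC1, which breaks down glutathione, stood at 1.1, 0.478 and 17.3 FPKM in THP-1 shCYTH4, against 8.33 ± 0.425 FPKM in the controls. Others of the list had another layout in THP-1: DDIT3 (log2 0.83, adjusted p = 0.177), ATF3 (0.60, 0.265) and CEBPB (1.74, 0.0578) were not called but had all 3 shCYTH4 libraries above the controls. That layout was found in 5 of the 18 in all, beside 17.1% of all genes tested. Without THP-1 shCYTH4 replicate 3, the list had 8 of 18 called higher in MV4-11, beside 1.78% of all genes, and 1 higher and 3 lower in THP-1, beside 3.21% and 3.55%.

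Genes of cystine use and glutathione, the pathway that SLC7A11 feeds, went both ways in MV4-11, with 7 of 14 fitted changes above 0, from -0.74 for AIFM2 to 2.51 for CTH, and a median of -0.0053. CTH, which makes cysteine from cystathionine, stood at 0.965 ± 0.336 and 5.82 ± 0.449 FPKM in the MV4-11 groups without overlap and was not called (adjusted p = 0.126). The median in THP-1 was 0.09. CBS, which makes cystathionine on the way to cysteine, rose in MV4-11 (log2 1.78, adjusted p = 0.0410). GCLM, a subunit of the enzyme that starts glutathione synthesis, rose in THP-1 (log2 1.04, adjusted p = 0.0159). Of 25 genes that sense amino acids upstream of mTORC1, none was called in either line. SESN2, a leucine sensor of the sestrin family, had the highest fitted change of that list in MV4-11, with 5.17 ± 0.260 FPKM in the controls and 15.0 ± 2.73 FPKM with the shCYTH4 label (log2 1.46, adjusted p = 0.165). Without THP-1 shCYTH4 replicate 3, 3 of the 14 cystine and glutathione genes were called higher and 1 lower in MV4-11. In THP-1, 4 of those 14 were then called higher and 2 lower. Of the 25 sensing genes, 2 were higher in MV4-11 and 1 lower in THP-1. Among all 12350 genes that fit called 220 higher and 178 lower in MV4-11, and 397 higher and 438 lower in THP-1.

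Among tested genes outside the 10, the pattern most like their mean was that of SESN2. Likeness was Pearson's r over the 12 libraries between a gene's log2 CPM centred within each line and the transporter mean. That mean was over the 10 transporters, centred the same way and each scaled to unit SD. The libraries share hairpin groups and depth scaling. SESN2 reached 0.986, the alanine aminotransferase GPT2 0.970, the methionyl-tRNA synthetase MARS1 0.965, the mitochondrial PEP carboxykinase PCK2 0.957 and TMEM268 0.954. Within the 10, r with their own mean ran from 0.68 for SLC43A1 to 0.98 for SLC7A5. Each of these is raised because the mean contains the gene itself, so they are not comparable with the values above. In THP-1 shCYTH4, replicate 3 was the highest of its group for both SESN2 and GPT2: SESN2 stood at 6.14, 5.70 and 22.3 FPKM, and GPT2 at 3.60, 3.25 and 11.5 FPKM.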

How the data were processed

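The deposited table held 24 columns of values for 12 libraries, and 0 columns lacked a sample. Per the file headers, the authors deposited an estimated count (whole numbers, not normalized) and an FPKM per gene and library. Low counts gather at multiples of 4, and a single count may therefore stand for less than a fragment. Columns marked SC and Sh were read as shControl and shCYTH4. The tools fastp, StringTie and edgeR are named, per the submitters' processing notes. Their roles, the aligner, build, annotation and use of strand in counting were not given in the sources used here; no gene that overlaps a transporter reached a mean of 1 FPKM.

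A gene was tested if 3 or more libraries had it at 1 FPKM or higher, which left 12350 genes and all 10 transporters. The estimated counts, already whole, were tested with edgeR 4.0.16 (TMM, robust quasi-likelihood, 4 group means, 8 residual degrees of freedom) under R 4.3.3, with Benjamini-Hochberg adjustment over all genes. The code was tested on simulated data. Alternatives were quantile scaling, DESeq2 1.42.0, limma 3.58.1 on log2(FPKM + 1) or log2(FPKM + 0.1), other filters, counts divided by 4, each line alone, a replicate block, and leaving out each library. Depth was 71730093 to 77782719 estimated counts, and the spread between 3 libraries limits precision more than counting does.

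The 10 members, the 5 further lists (101 entries, 90 found) and the tests were chosen with earlier results of these data known. Named genes are the 10, CYTH4, the called members of each list, TRIB3, DDIT3, ATF4, CHAC1 and SESN2, and the 5 genes most like the 10. SLC43A2, SLC7A7, SLC7A6, SLC38A5, CTH and CEBPB were named after their values were seen.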

Additional observations from a re-analysis of the deposited data

Results flagged for a closer look

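SLC43A1 lay on opposite sides of the control mean in the lines: all 3 MV4-11 shCYTH4 libraries were above the control mean of their line and all 3 THP-1 shCYTH4 libraries below it. In THP-1 the groups overlapped, since control replicate 1, at 19.0 FPKM, was below all 3 shCYTH4 libraries, and SLC43A1 was called in neither line (edgeR adjusted p = 0.365 in MV4-11 and 0.302 in THP-1). These responses differed by 0.63 on the log2 scale, which edgeR did not call (adjusted p = 0.176). VLDLR responded differently in the lines, with a log2 change of 1.01 in MV4-11 and -0.26 in THP-1, a difference of 1.27 (edgeR adjusted p = 0.0485). AIFM2, which protects membranes from lipid peroxidation, also differed, by -1.53 on the log2 scale (edgeR adjusted p = 0.0196), with 2.5 ± 0.231 and 1.58 ± 0.120 FPKM in MV4-11 shControl and shCYTH4 and 2.18 ± 0.228 and 4.07 ± 1.01 FPKM in THP-1 (n = 3 each).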

How the results depend on the processing

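The count of 1 transporter called in MV4-11 was 2 with quantile scaling, 4 with DESeq2, 3 with limma on log2(FPKM + 1), 2 with limma on log2(FPKM + 0.1) and 4 with each line alone. SLC6A9, which entered the test through the MV4-11 shCYTH4 group, was among those called with limma on log2(FPKM + 1) and with each line alone. Without SLC6A9, the count with each line alone was 3 of 9. All genes called in MV4-11, 139, became 92 with quantile scaling and 451 with DESeq2. In THP-1, 204 became 608 with DESeq2, 477 with limma on log2(FPKM + 1), 78 with each line alone and 23 with the replicate block. For the difference between the lines, 0 transporters became 2 with DESeq2 and 1 with limma on log2(FPKM + 1), and 107 genes became 436, 162, 162 with all genes above a count of 0 and 47 with the replicate block. The transporter called there with limma was SLC6A9. Leaving out each library gave 0 to 7 transporters and 74 to 398 genes in MV4-11, 0 to 5 and 15 to 835 in THP-1, 0 to 7 and 32 to 913 for the difference, and 2 to 5 and 5398 to 6709 between the control libraries. Both counts of 7 came without THP-1 shCYTH4 replicate 3, and each was 6 of 9 without SLC6A9. SLC7A11 was among those 6 and in that fit was also in the test through the MV4-11 shCYTH4 group.

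Signs turned in THP-1 for SLC3A2 (0.058 with quantile scaling, 0.067 with limma on log2(FPKM + 1), 0.069 with limma on log2(FPKM + 0.1)), SLC7A11 (-0.10 with limma on log2(FPKM + 0.1), -0.33 with the replicate block) and SLC1A5 (-0.0064 with the replicate block). Over left-out libraries the THP-1 changes ran from -0.17 to 0.046 for SLC3A2, -1.28 to 0.94 for SLC7A11 and -0.17 to 0.11 for SLC1A5, and the difference for SLC1A4 from -0.019 to 0.24. The cause was not tested. Of 860 values of single transporters under the alternatives, 800 kept direction and side of the threshold.

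The labels number the replicates in each group. Deviations of same-numbered libraries from their group means had correlations of -0.17, -0.12 and -0.03 in MV4-11 and -0.21, 0.09 and -0.05 in THP-1. Differently numbered pairs ran from -0.12 to 0.19 in MV4-11 and from -0.22 to 0.29 in THP-1. With 3 libraries per group, these values cannot tell whether libraries of the same number shared a batch or culture. With the replicate block, 1, 0, 0 and 5 transporters were called in MV4-11, THP-1, the difference and the control libraries. The counts over all 12350 genes, in the same order, were 94, 23, 47 and 6115.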
